A study of Mus musculus with 8 samples.

Results

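The integrated stress response was examined in cultured mouse bone-derived mesenchymal stem cells (MSCs) through 10 genes of its ATF4 branch. They are Atf4, Atf5, Ddit3, Nupr1, Trib3, Ppp1r15a, Chac1, Asns, Vldlr and Stc2, and were taken by gene symbol from the 53465 genes of the count table. The genes were chosen by name with the comparison between oxygen levels already known, so their differences between oxygen levels are given as a description. Where a fit over all genes called some of them, their number stands beside the share of all genes called and supports nothing. All 10 passed the filter on low counts, which left 14369 genes for comparison. Stc2, the least abundant, had between 92 and 353 counts per sample.

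MSCs are stromal cells that can form bone, fat and cartilage. RNA-seq compared 4 cultures kept at 2% oxygen (hypoxia) with 4 cultures kept at 21% oxygen (normoxia). All cells came from wild-type male C57BL/6 N mice aged 3 to 5 months and were grown in α-MEM medium with CO2. Per the labels they were purified by flow cytometry on day 12. The study describes outgrowth from hind limb bone at 2% oxygen and a sort for CD45-, TER-119-, Sca-1+ and CD140a+ cells. The sorted population was then split between the oxygen levels, so both groups share the first culture at low oxygen. Per the study, the culture at each level lasted a week, to look at long-term effects.

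The integrated stress response begins when a kinase phosphorylates the initiation factor eIF2, which slows general protein synthesis. The mRNAs of Atf4 and Atf5 carry upstream open reading frames and are then translated more, so that the amount of Atf4 mRNA is not a measure of ATF4 protein. ATF4 is a basic leucine zipper (bZIP) factor that raises genes of amino acid supply and redox balance, and in bone it is known for supporting amino acid import and collagen synthesis by osteoblasts.

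ATF4 binds, together with a C/EBP partner, a composite element written here as TGATGNAA, where N is any base. Promoter sequences were taken from RefSeq on GRCm38.p6, from 250 bases before to 50 bases after each start site, with the start site counted as position 1. All 10 genes had an entry, with 12 promoters between them because Atf5 and Vldlr have a pair each. TGATGNAA, searched on both strands, was found in promoters of 5 of the 10 genes, Trib3, Chac1, Asns, Nupr1 and Vldlr. Over all entries 3.97% of 32851 promoters and 4.51% of 27025 genes held it. ATF4 targets were known when the genes were picked, and a match of letters does not show binding. The promoters below show how the element is placed in a gene for each kind of role, with TGATGNAA in capitals. Ppp1r15a is shown beside them because it had no TGATGNAA and was the only one of the 10 with TGACGT, the core of the cyclic AMP response element, which is in capitals there. TGACGT was present in 7.51% of all promoters and 8.37% of all genes with an entry.

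Trib3 (chr2:152344011-152344310, minus strand): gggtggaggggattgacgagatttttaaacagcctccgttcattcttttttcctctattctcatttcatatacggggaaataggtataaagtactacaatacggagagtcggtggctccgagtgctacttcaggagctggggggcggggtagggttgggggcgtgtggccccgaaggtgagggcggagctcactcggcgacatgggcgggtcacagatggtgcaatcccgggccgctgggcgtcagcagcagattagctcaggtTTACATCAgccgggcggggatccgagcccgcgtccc
Chac1 (chr2:119350992-119351291, plus strand): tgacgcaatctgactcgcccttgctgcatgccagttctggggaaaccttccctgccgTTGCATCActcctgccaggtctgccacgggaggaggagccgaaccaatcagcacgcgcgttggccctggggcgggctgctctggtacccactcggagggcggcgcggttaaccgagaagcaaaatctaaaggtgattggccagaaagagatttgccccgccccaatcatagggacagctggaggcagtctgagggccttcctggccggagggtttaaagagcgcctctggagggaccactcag
Asns (chr6:7693160-7693459, minus strand): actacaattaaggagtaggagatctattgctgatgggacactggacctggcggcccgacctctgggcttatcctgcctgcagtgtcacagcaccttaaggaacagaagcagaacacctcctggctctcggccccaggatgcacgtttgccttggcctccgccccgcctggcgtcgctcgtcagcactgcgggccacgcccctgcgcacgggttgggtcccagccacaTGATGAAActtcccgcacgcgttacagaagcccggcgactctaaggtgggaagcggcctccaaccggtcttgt
Nupr1 (chr7:126625421-126625720, minus strand): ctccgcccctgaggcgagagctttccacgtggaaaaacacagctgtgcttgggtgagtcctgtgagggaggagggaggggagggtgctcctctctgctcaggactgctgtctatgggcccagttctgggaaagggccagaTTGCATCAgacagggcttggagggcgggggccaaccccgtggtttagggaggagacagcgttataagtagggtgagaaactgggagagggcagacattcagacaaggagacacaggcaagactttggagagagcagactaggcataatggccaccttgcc
Ppp1r15a (chr7:45526219-45526518, minus strand): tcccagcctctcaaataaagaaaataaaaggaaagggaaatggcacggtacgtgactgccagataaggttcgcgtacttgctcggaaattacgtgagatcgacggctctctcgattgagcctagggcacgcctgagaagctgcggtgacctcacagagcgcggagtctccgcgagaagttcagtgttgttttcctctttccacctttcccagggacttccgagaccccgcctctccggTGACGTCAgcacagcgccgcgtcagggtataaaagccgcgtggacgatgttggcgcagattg

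In these runs, printed 5′ to 3′ on the strand of the gene, the Trib3 element lay after the start site, at positions 15 to 22. In Asns it lay just before the start, from -23 to -16, and was the only one on the coding strand. In Nupr1 it began at -110 and in Chac1 at -193. The Nupr1 and Chac1 elements had the same letters, TTGCATCA, which the second Vldlr promoter also carried at -200 to -193, while that of Trib3 read TTACATCA. In Ppp1r15a TGACGT was read on both strands from overlapping positions, -12 to -7 and -10 to -5. CCACG, the 3′ part of the ER stress element, was found in promoters of 7 of the 10 genes, against 35.5% of all genes with an entry. ACGTG, the core of the hypoxia response element, was found in 4 of the 10 (Asns, Ddit3, Nupr1 and Ppp1r15a), against 21.8% of those genes. Both were searched on both strands, and in Nupr1 they overlapped in the same bases.

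Total counts per sample ranged from 12898291 to 25132141. Hypoxia replicate 1 was the deepest, and the other 7 samples lay between 12898291 and 13433824. Levels are given as CPM, the counts of a gene relative to the total of its sample, scaled between samples by the trimmed mean of M-values (TMM). Changes are differences of log2 CPM, normoxia minus hypoxia, with a standard error (SE) from a limma-trend fit over all tested genes. Across these genes the median change was 0.00485 on the log2 scale, and the middle of the distribution ran from a lower quartile of -0.232 to an upper quartile of 0.245. The 10 markers of mesenchymal cells were all detected, Ly6a and Pdgfra of the sort gate among them. Their summed level was 53850 to 61890 CPM in hypoxia and 33970 to 36500 CPM in normoxia, most of it Col1a1. The 10 blood and macrophage markers were all detected too, with Ptprc (CD45) at 140 to 263 counts, and summed to 596 to 1243 CPM in hypoxia and 677 to 1299 CPM in normoxia. Lyz2 had the most counts of them in every sample, 4244 to 6242 in hypoxia and 5380 to 9578 in normoxia. It therefore weighs most in the sums, and other markers did not go its way. C1qa had 813 to 1522 counts in hypoxia and 403 to 918 in normoxia. For C1qb these were 1003 to 1817 and 577 to 1393, and for Csf1r 1810 to 3180 and 1011 to 2295. Adgre1 overlapped widely, at 1094 to 1898 and 899 to 2004. These counts are not scaled for depth, and hypoxia replicate 1 was the deepest sample. Of the 10, 1 was called higher and 1 lower in normoxia, against 18.0% and 16.5% of all genes. Of 7 erythroid markers 5 were at 0 in every sample, as was Emcn among 5 endothelial markers, which summed to at most 2.7 CPM. The part of these cell types in the results was not tested, and in bulk RNA fewer cells of a type cannot be told apart from less RNA per cell.

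Within the ATF4 branch the genes did not move as a block. Atf5, Trib3, Chac1 and Asns were lower in normoxia in every sample, Ppp1r15a was higher in every sample, and Atf4, Ddit3, Nupr1, Vldlr and Stc2 had overlapping groups. Limma-trend called 5 of the 10 at an adjusted p under 0.05, where 34.6% of all tested genes were called. These were 1 higher gene, where 18.0% of all genes were called higher, and 4 lower genes, where 16.5% were called lower. Groups that did not overlap were again 1 higher and 4 lower, against 17.1% and 15.5% of all genes. Nothing is read from these counts, since the comparison was known when the genes were chosen.

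**Figure D1:**
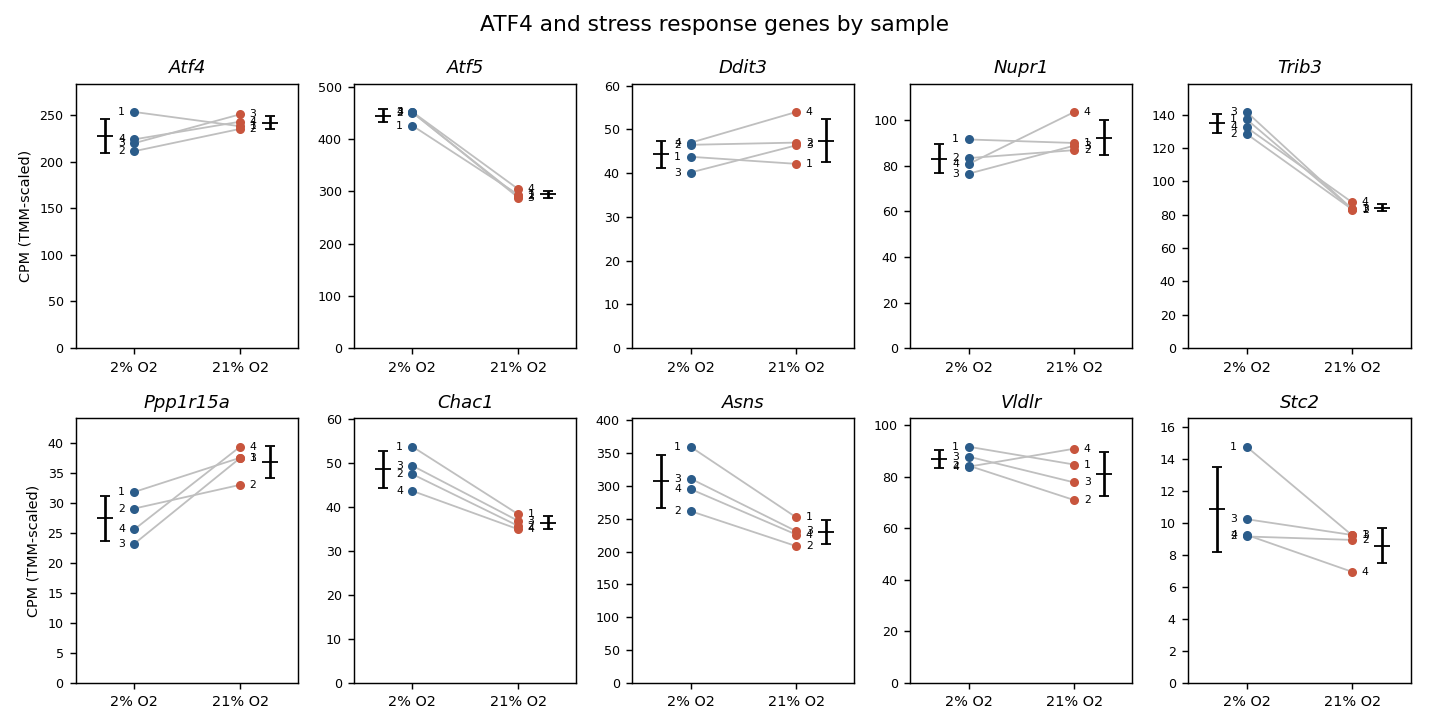
Level of each of the 10 genes in CPM (y axis, from 0) in the 4 samples at 2% oxygen (blue) and the 4 at 21% oxygen (red), with grey lines joining samples of the same number and black bars for the mean ± SD. The groups are apart for Atf5, Trib3, Ppp1r15a, Chac1 and Asns, and they overlap for Atf4, Ddit3, Nupr1, Vldlr and Stc2.

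The transcription factors came first. Atf4 (ENSMUSG00000042406, chromosome 15, 80255184 to 80257541, plus strand), the central factor of the response, was at 253, 211, 220 and 224 CPM in hypoxia replicates 1 to 4 and at 238, 235, 251 and 243 CPM in normoxia replicates 1 to 4. The groups overlapped, since hypoxia replicate 1 lay above every normoxia sample while the other 3 hypoxia samples lay below them. The log2 change was 0.09 (SE 0.063), and 3 of the 4 pairs of samples with the same number were higher in normoxia. Without hypoxia replicate 1 it was 0.15.

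Atf5 (ENSMUSG00000038539, chromosome 7, 44812256 to 44816658, minus strand), a bZIP factor close to Atf4 that is also controlled through upstream reading frames, was at 425, 451, 451 and 452 CPM in hypoxia. In normoxia it was at 294, 290, 288 and 304 CPM. The groups were well apart, with the lowest hypoxia sample far above the highest normoxia sample. The log2 change was -0.60 (SE 0.051), or 1.51-fold higher in hypoxia, and pair differences ran from -0.65 to -0.53. Atf5 overlaps Nup62 on the opposite strand by 571 bases, and whether the counting used strand is not stated. Over all samples Atf5 had 43438 counts and Nup62 had 4217.

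Ddit3 (ENSMUSG00000025408, chromosome 10, 127290774 to 127296288, plus strand) encodes CHOP, the factor that links prolonged stress to cell death. It was at 43.7, 46.5, 40.1 and 46.9 CPM in hypoxia and at 42.1, 47.0, 46.3 and 54.0 CPM in normoxia. The groups overlapped through most of their range, and the log2 change was 0.09 (SE 0.084). The change was 0.017 without normoxia replicate 4, the highest sample. Ddit3 overlaps Mars, a tRNA synthetase gene, by 68 bases on the opposite strand. Over all samples Mars had 12784 counts and Ddit3 had 5325, so the neighbour held more counts than Ddit3 itself.

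Nupr1 (ENSMUSG00000030717, chromosome 7, 126623249 to 126630861, minus strand), a small nuclear protein induced by many stresses, was at 91.6, 83.4, 76.6 and 80.8 CPM in hypoxia. It was at 90.1, 86.9, 88.9 and 103.7 CPM in normoxia. The groups overlapped through hypoxia replicate 1, and the log2 change was 0.15 (SE 0.074). Without normoxia replicate 4 it was 0.085.

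The feedback genes differed in opposite directions. Trib3 (ENSMUSG00000032715, chromosome 2, 152337422 to 152344032, minus strand), a pseudokinase that is induced by ATF4 and binds it to restrain its activity, was at 137, 128, 142 and 132 CPM in hypoxia and at 83.2, 83.1, 83.3 and 87.3 CPM in normoxia. The groups were far apart, and 3 of the normoxia samples lay almost on the same value. The log2 change of -0.68 (SE 0.054) had the largest size of the 10 genes without correction for GC content, corresponding to 1.60-fold more in hypoxia. Pair differences lay between -0.76 and -0.60, and 92.0% of all tested genes had a smaller change in size.

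Ppp1r15a (ENSMUSG00000040435, chromosome 7, 45522916 to 45526268, minus strand) encodes GADD34, which directs protein phosphatase 1 to eIF2 and so ends the response. It was at 31.8, 29.0, 23.2 and 25.6 CPM in hypoxia and at 37.5, 33.0, 37.5 and 39.3 CPM in normoxia. The groups were apart but close, with hypoxia replicate 1 just below normoxia replicate 2. The log2 change was 0.43 (SE 0.10), or 1.35-fold higher in normoxia, and the pairs differed widely among themselves, from 0.18 to 0.69. Ppp1r15a overlaps Tulp2, which had only 8 counts over all samples.

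Of the effector genes, those of amino acid and glutathione handling were lower in normoxia. Asns (ENSMUSG00000029752, chromosome 6, 7675169 to 7693254, minus strand), which makes asparagine, was at 360, 262, 311 and 295 CPM in hypoxia and at 252, 208, 231 and 226 CPM in normoxia. The groups were apart by a narrow margin, but the samples ranked in the same order by number in both groups, from 1 as the highest over 3 and 4 to 2. Each pair therefore gave a like difference, between -0.51 and -0.33, around a log2 change of -0.41 (SE 0.090).

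Chac1 (ENSMUSG00000027313, chromosome 2, 119351229 to 119354381, plus strand), which degrades glutathione, was at 53.8, 47.5, 49.4 and 43.7 CPM in hypoxia. In normoxia it was at 38.4, 35.7, 36.9 and 35.0 CPM. Here too the groups were apart and the order of the samples was the same in both, from 1 over 3 and 2 to 4. The log2 change was -0.41 (SE 0.074), with pair differences from -0.48 to -0.32.

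Vldlr (ENSMUSG00000024924, chromosome 19, 27216484 to 27254231, plus strand), a lipoprotein receptor raised by ATF4 under endoplasmic reticulum (ER) stress, was at 91.6, 84.2, 87.7 and 83.8 CPM in hypoxia and at 84.7, 70.9, 77.7 and 90.8 CPM in normoxia. The groups overlapped, since normoxia replicates 1 and 4 lay within the range of the hypoxia samples. The log2 change was -0.11 (SE 0.076), with a range from -0.17 to -0.055 when single samples were left out.

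Stc2 (ENSMUSG00000020303, chromosome 11, 31357307 to 31370074, minus strand), a secreted glycoprotein induced by ER stress, was at 14.8, 9.15, 10.2 and 9.25 CPM in hypoxia and at 9.21, 8.93, 9.24 and 6.93 CPM in normoxia. The middle samples of both groups lay on nearly the same value, and the difference came mainly from hypoxia replicate 1 and normoxia replicate 4. The log2 change was -0.31 (SE 0.16), and without hypoxia replicate 1 it was -0.16.

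Because same-numbered samples shared part of their deviation from the group means, a second fit held the replicate number as a block. It then called 7 of the 10 genes, 2 higher and 5 lower, where 46.0% of all genes were called, 23.3% higher and 22.7% lower. The added genes were Nupr1, higher, and Stc2, lower. Another fit allowed for a dependence on the GC content and length of transcripts over all genes. The longest transcripts of these 10 genes ran from 43.8% GC in Vldlr to 61.7% in Atf5. After removal of any such dependence from every sample, Atf5 changed by -0.34 in place of -0.60 and Chac1 by -0.20 in place of -0.41, while Trib3 changed by -0.48. Asns stood at -0.45 and Ppp1r15a at 0.56. Atf4 moved to 0.25 and Vldlr to -0.26. Each gene kept its sign. This fit called 6 of the 10 genes, where 29.5% of all genes were called, as Atf4 and Vldlr were added and Chac1 was lost. With the block and the correction together 9 of the 10 genes were called, all but Ddit3, where 43.2% of all genes were called (21.7% higher and 21.5% lower). Whether GC content has a part in the differences was not tested.

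**Figure D2:**
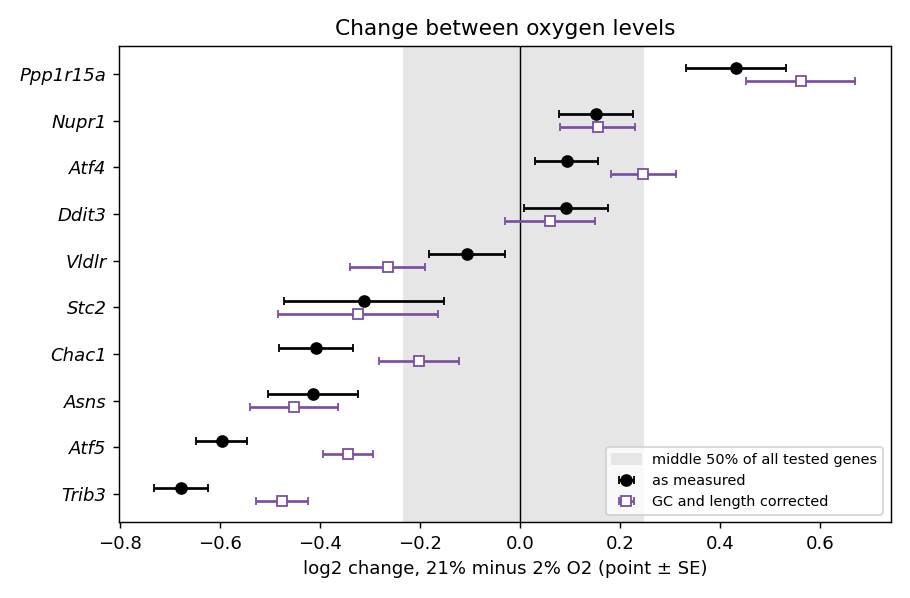
Log2 change of each gene, normoxia minus hypoxia (x axis, point ± SE), as measured (black circles) and after correction for GC content and length (open purple squares), over a grey band from the lower to the upper quartile of all tested genes as measured. Trib3 lies lowest at -0.68 and Ppp1r15a highest at 0.43, and the correction brings Atf5 from -0.60 to -0.34.

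Compared per kilobase of exon, so that genes of different length can be set side by side, Atf5 was the most abundant of the 10 genes in both groups. The length is that of all annotated exons of a gene joined, so the ranks depend on the annotation. For Ddit3 it is 1713 bases, where the longest transcript has 969. Atf5 was at 223 ± 6.44 CPM per kilobase in hypoxia and at 147.5 ± 3.60 in normoxia (SD, 4 samples each). Asns at 112 ± 14.9 and Atf4 at 96.2 ± 7.74 followed in hypoxia. The genes were read in the same samples, so the SDs of single genes cannot judge the order between genes, which was not tested. In normoxia Atf4 was at 102 ± 2.90 and Asns at 83.9 ± 6.59, so that the order of their means was the opposite. Trib3 came next in both groups, at 63.5 ± 2.70 in hypoxia and 39.7 ± 0.97 in normoxia. In normoxia Nupr1 was close to it, at 36.8 ± 3.04, whereas in hypoxia Nupr1 was at 33.1 ± 2.52. Chac1 and Ddit3 were at 29.7 ± 2.56 and 25.9 ± 1.82 in hypoxia, and at 22.3 ± 0.91 and 27.6 ± 2.87 in normoxia. Ppp1r15a at 9.33 ± 1.29 and Vldlr at 8.63 ± 0.36 were close in hypoxia, and Stc2 was the lowest at 2.10 ± 0.51. Together the 10 genes held 0.13% to 0.143% of all counts in hypoxia and 0.114% to 0.122% in normoxia.

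Set against Atf4 in the same sample, the genes that ATF4 is known to raise showed different patterns. The log2 level of Atf5 was 0.97 ± 0.15 above that of Atf4 in hypoxia and 0.28 ± 0.056 above it in normoxia (SD, 4 samples each), with no overlap. Trib3 lay at -0.75 ± 0.10 relative to Atf4 in hypoxia and at -1.52 ± 0.049 in normoxia. Asns relative to Atf4 was at 0.43 ± 0.094 and -0.076 ± 0.11, and Chac1 at -2.22 ± 0.096 and -2.72 ± 0.071. Thus Atf5, Trib3, Asns and Chac1 each took a lower value relative to Atf4 in every normoxia sample than in any hypoxia sample. Ddit3 had the same mean relative to Atf4 in both groups, at -2.35 ± 0.16 and -2.35 ± 0.14, and Ppp1r15a was at -3.05 ± 0.16 and -2.71 ± 0.091. These differences come from the same counts as the changes above and are no separate evidence.

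**Figure D3:**
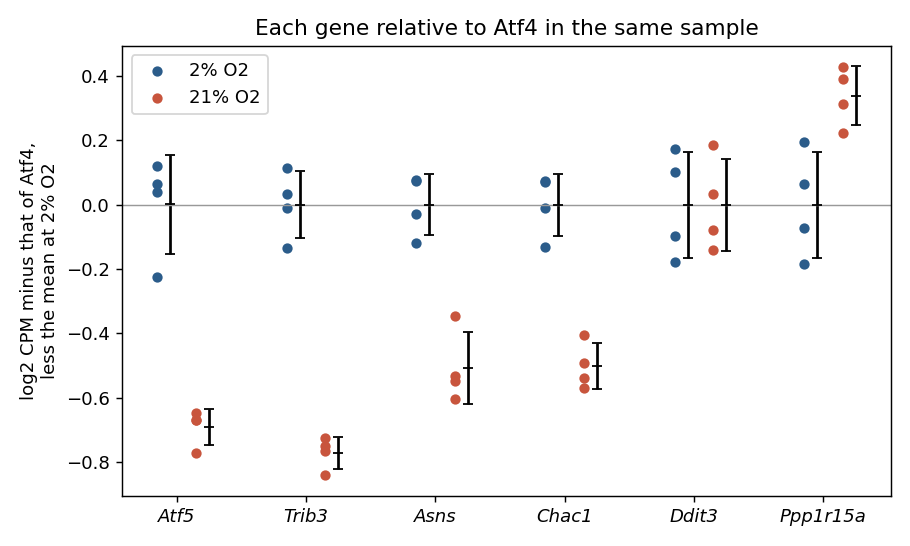
Log2 CPM of 6 genes minus that of Atf4 in the same sample, less the hypoxia mean of that difference (y axis), for the 4 samples at 2% oxygen (blue) and the 4 at 21% oxygen (red), with black bars for the mean ± SD. Atf5, Trib3, Asns and Chac1 lie lower in all 4 normoxia samples, Ddit3 overlaps fully, and Ppp1r15a lies higher in normoxia.

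Within groups, the genes differed in steadiness. The SD of the deviations from group means was smallest for Atf5, at 0.039 on the log2 scale, and for Trib3, at 0.050. It was 0.085 for Atf4, 0.16 for Asns and Ppp1r15a and 0.26 for Stc2, the gene with the fewest counts. Hypoxia replicate 1 was the highest hypoxia sample for 7 of the 10 genes and the lowest for Atf5. Normoxia replicate 4 was the highest normoxia sample for 6 of the 10 and the lowest for Chac1 and Stc2.

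The deviations from group means were also used to name the genes most like Atf4 and Trib3, among genes with a mean log2 CPM of at least 3. For Atf4 these were P4ha2, with a Pearson's r of 0.976 over the 8 samples, Atp12a (0.972), Il13ra1 (0.961), Nrbp1 (0.957) and C1qtnf6 (0.95). For Trib3 they were Hipk2 (0.972), Fam118b (0.969), Arid5a and Ints1 (0.944 each) and Slc26a11 (0.936). These are the highest values among all such genes, over few samples that share a culture number by pairs, and for Atf4 the largest single deviation, 0.16, was that of hypoxia replicate 1. They are given as a description only. The change between oxygen levels was not part of the measure and differed among these genes, from -0.40 in Hipk2 to 0.55 in Il13ra1.

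The rest of the pathway was described with 126 genes in 11 lists, of which all passed the filter. The lists were written from textbook roles, but with earlier results of these data known. Their shares of calls and p-values are therefore a description. By limma-trend 66 of them changed, which is 52.4% against the 34.6% of all tested genes, with 35 higher (18.0% of all genes) and 31 lower (16.5%) in normoxia. Their median change was 0.0078 on the log2 scale, against 0.00485 over all genes. The shares were not matched for expression level, and genes with few counts, such as Stc2 (SE 0.16), had larger SEs. The lists had no common direction, and each is given by its role, from the sensors to the targets.

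Genes that sense stress and act on eIF2 were higher in normoxia where they passed the test. Of the 4 eIF2 kinases 2 rose, where 18.0% of all genes were called higher, with a list median of 0.29. Eif2ak2, which encodes PKR, the kinase for double-stranded RNA, rose from 4.80 ± 0.21 to 5.43 ± 0.10 log2 CPM (change 0.63, SE 0.10, adjusted p = 0.000663, limma). Eif2ak3, which encodes the ER stress kinase PERK, rose by 0.39 (SE 0.099, adjusted p = 0.010, limma). Eif2ak1, the heme-regulated kinase, differed by 0.14 (adjusted p = 0.183, limma), and Eif2ak4, the sensor of amino acid lack GCN2, by 0.19 (adjusted p = 0.192, limma). Of 8 subunits of eIF2 and its exchange factor eIF2B, 4 rose, against 18.0% of all genes, with a median of 0.34. Eif2s2, the beta subunit, rose by 0.45 (SE 0.077, adjusted p = 0.000992, limma), the largest change of the list as measured. With the GC and length correction it was 0.21 (adjusted p = 0.0475), below Eif2b1 at 0.33. When block and correction for GC content and length were combined, 7 of the 8 were higher, against 21.7% of all genes, and the median after correction was 0.22.

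On the side that removes the phosphate, 2 of 4 genes fell, where 16.5% of all genes were called lower, with a median of -0.14. Ppp1ca, a catalytic subunit of protein phosphatase 1, fell by 0.40 (SE 0.075, adjusted p = 0.00161, limma), and Ppp1cb, another, fell by 0.25 (adjusted p = 0.00354, limma). With the GC and length correction their order was the opposite, with -0.21 for Ppp1ca and -0.48 for Ppp1cb. Ppp1cb was chosen after its values were seen. Ppp1r15b, the constitutive partner that does the same work as Ppp1r15a, differed by 0.13 (adjusted p = 0.165, limma), while Ppp1r15a itself had the change of 0.43 given above. Among 6 genes that act on the kinases 1 rose and 1 fell, a share of 33.3% near the 34.6% of all tested genes. Impact, which restrains GCN2, rose by 0.72 (SE 0.097, adjusted p = 0.000253, limma). Gcn1l1, which activates GCN2, fell by 0.22 (adjusted p = 0.0246, limma), a call that was lost with the GC and length correction (change -0.028, adjusted p = 0.783) and without hypoxia replicate 3 (change -0.17, adjusted p = 0.0784).

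Of 21 other bZIP factors, among them dimer partners of ATF4, 6 rose and 7 fell, against 18.0% and 16.5% of all genes. Their median was 0.10. Fos and Junb, parts of the AP-1 factor, rose by 0.80 and 0.61 (adjusted p = 0.00931 and 0.00306, limma). Nfe2l2, the NRF2 regulator of antioxidant genes, rose by 0.59 (adjusted p = 0.000107, limma), Atf6, the factor of another arm of the ER stress response, by 0.52 (adjusted p = 0.000752, limma) and Cebpd by 0.51 (adjusted p = 0.00583, limma). Nfe2l1 rose by 0.18 (adjusted p = 0.0427, limma), but this call was lost in 9 alternatives, 6 of which left out a single sample (hypoxia replicate 3 or 4, or any of the 4 normoxia samples). Cebpa, a factor of fat and myeloid cells, fell most, by 0.87 (SE 0.17, adjusted p = 0.00216, limma).

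Jund fell by 0.74 (adjusted p = 0.000249, limma), Maf by 0.50 (adjusted p = 0.00562), Atf7 by 0.48 (adjusted p = 0.000617), Creb3l1 by 0.38 (adjusted p = 0.000328) and Creb3l2 by 0.35 (adjusted p = 0.00138). The fall of Jdp2, by 0.20 (adjusted p = 0.0431, limma), was lost with the GC and length correction, where the change was -0.0030. It was also lost without any one of hypoxia replicates 2, 3 and 4 and normoxia replicates 1, 2 and 3. The C/EBP partners differed among themselves, as Cebpd rose and Cebpa fell, while Cebpb at 0.10 and Cebpg at 0.081 did not pass the test. After correction for GC content and length Cebpb was at 0.40 and passed it (adjusted p = 0.00542, limma), and Cebpg turned to -0.11 (adjusted p = 0.311). That correction also brought Jund to -0.45 and Creb3l1 to -0.18, which both still passed the test. With the block and the correction together 11 of the 21 bZIP genes were higher and 7 lower, against 21.7% and 21.5% of all genes. Cebpb and Cebpg fell outside the rule for named genes and are given because they pair with ATF4.

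Amino acid carriers known as ATF4 targets formed the list with the highest share of calls. Of its 10 genes 7 fell in normoxia, where 16.5% of all genes were called lower. All 10 changes were negative, with a median of -0.26, where the median of all tested genes was 0.00485. Slc7a3, a carrier of cationic amino acids, fell from 4.93 ± 0.13 to 3.25 ± 0.33 log2 CPM (change -1.68, SE 0.15, adjusted p = 3.83e-05, limma). Slc7a5, which with Slc3a2 forms the LAT1 carrier of large neutral amino acids, fell by 1.01, and its partner Slc3a2 by 0.24 (adjusted p = 1.69e-05 and 0.00501, limma). Slc1a5, a glutamine carrier, fell by 0.84 (adjusted p = 3.61e-05, limma), and Slc6a9, a glycine carrier, by 0.75 (adjusted p = 9.85e-05, limma). Slc7a11, the cystine carrier of glutathione supply, differed by -0.23 (adjusted p = 0.417, limma). Apart from Slc7a3 these carriers were chosen after their values were seen. With the GC and length correction the median was -0.39, with all 10 changes still negative.

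Enzymes of amino acid and one-carbon metabolism had the same sign in smaller steps. Of 12 genes 4 fell, where 16.5% of all genes were called lower. The share called, 33.3%, was near the 34.6% of all tested genes. All 12 changes were negative, with a median of -0.22, where the median of all tested genes was 0.00485. Some were small next to their SE, such as Mthfd2 at -0.086 (SE 0.094) and Aldh1l2 at -0.087 (SE 0.085). Pycr1, an enzyme of proline synthesis, fell by 0.51 (SE 0.068, adjusted p = 0.000254, limma). With the replicate block 7 of the 12 were called lower, against 22.7% of all genes. Few genes of the list of tRNA synthetases, also known as ATF4 targets, passed the test. Of 13 genes (12 synthetases and the tRNA exporter Xpot) 3 rose, with a median of 0.10, a share of 23.1% that is below the 34.6% of all tested genes. With the replicate block 6 rose and 1 fell, against 23.3% and 22.7% of all genes. With block and correction combined 4 were higher, against 21.7% of all genes, and the corrected median was 0.034. Tars, the threonine synthetase, rose by 0.38 (SE 0.099, adjusted p = 0.0105, limma), the largest rise of the list as measured.

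Stress effectors, secreted factors and autophagy genes were split, with 6 of 20 higher and 6 lower, against 18.0% and 16.5% of all genes. Their median was -0.040. Pmaip1, which encodes the cell death protein NOXA, rose from 1.41 ± 0.44 to 2.83 ± 0.31 log2 CPM (change 1.42, SE 0.23, adjusted p = 0.000702, limma). Avil, an actin-binding gene, fell by 1.08 (SE 0.18, adjusted p = 0.00079, limma). With block and correction combined, 7 of the 20 were higher and 3 lower, against 21.7% and 21.5% of all genes.

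In the other arms of the ER stress response 8 of 19 chaperone and quality control genes rose and 3 fell, with a median of 0.15. Of all genes 18.0% were called higher and 16.5% lower. Hspa5, the main ER chaperone BiP, rose from 9.60 ± 0.069 to 10.28 ± 0.024 log2 CPM (change 0.68, SE 0.059, adjusted p = 3.83e-05, limma). Derl1, a part of the export of misfolded proteins from the ER, fell by 0.46 (SE 0.054, adjusted p = 0.000133, limma). Among 11 mitochondrial chaperones and proteases 5 rose and 2 fell, against the same shares of all genes, with a median of 0.19. Yme1l1, a protease of the inner membrane, rose by 0.71 (SE 0.061, adjusted p = 3.83e-05, limma), and by 0.46 with the GC and length correction. Lonp1, the matrix protease, fell by 0.23 (adjusted p = 0.00821, limma), and this call was lost with the GC and length correction (change -0.11, adjusted p = 0.177).

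**Figure D4:**
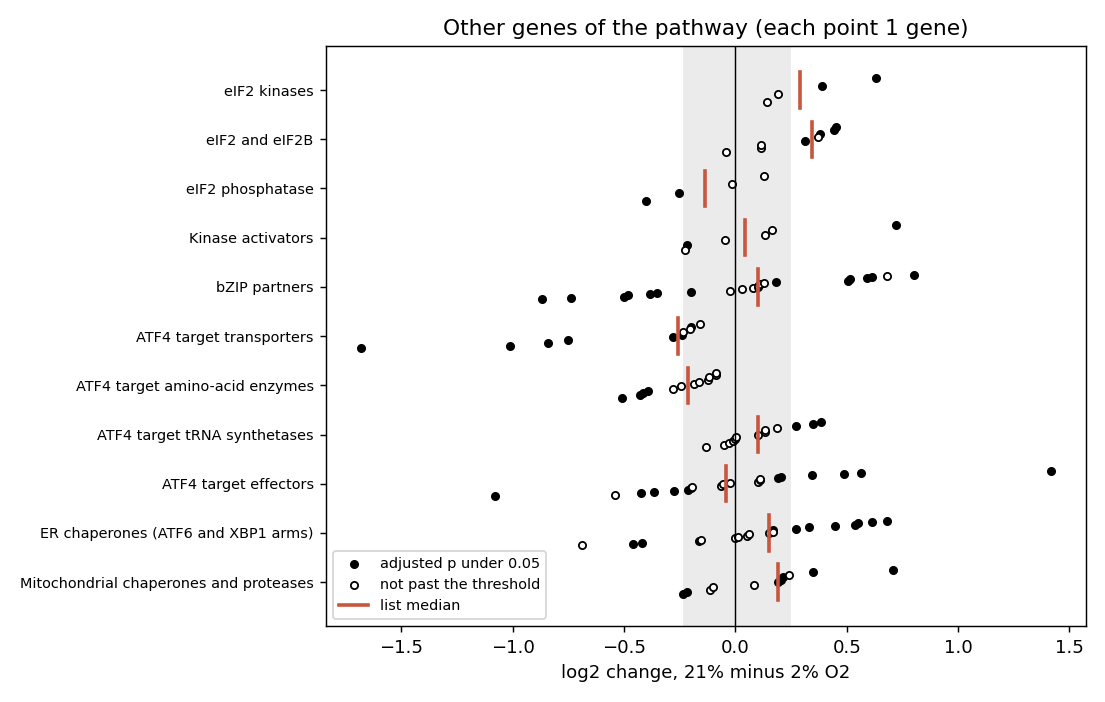
Log2 change, normoxia minus hypoxia (x axis), of each of 126 genes in 11 lists (rows; Jdp2 and Cebpb are in 2 lists), filled where the adjusted p was under 0.05, with red lines for list medians and a grey band from the lower to the upper quartile of all tested genes. All 10 amino acid carriers and all 12 amino acid enzymes lie left of 0, while eIF2 kinases and ER chaperones have medians of 0.29 and 0.15. The median of all tested genes is 0.00485. Of the 12 enzymes 4 are filled (33.3%), near the 34.6% of all tested genes.

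The composite element TGATGNAA was looked for in the promoters of these lists too. It was present in 5 of 8 genes of the tRNA synthetase list that had an entry among the promoters and in 4 of 14 effectors. It was present in 2 of 7 carriers, in 2 of 10 amino acid enzymes and in 0 of 16 ER chaperone genes. Over all genes with an entry 4.51% held it. Listed genes without an entry under their symbol were left out, and ATF4 targets were known when the lists were written. Among the 10 ATF4 branch genes the element was present in Trib3, Chac1 and Asns, which were lower in normoxia. It was also present in Nupr1 and Vldlr, whose groups overlapped. The windows of Atf5, Ppp1r15a, Atf4, Ddit3 and Stc2 did not hold it. A link between the element and the changes was not tested.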

How the data were processed

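RNA-seq was performed on 4 hypoxia and 4 normoxia cultures, grouped by the labels. The authors sequenced 150-base single-end reads and processed them with zUMIs 2.2.1, STAR 2.6.1a, samtools 1.9 and featureCounts (Rsubread 1.32.4) on mm10 with Ensembl annotation, and deposited raw counts per gene, whole numbers without normalization. Settings for strand, introns and reads with several positions are not stated, so overlapping genes are uncertain. Symbols, coordinates, GC content and lengths came from GENCODE M21 on GRCm38, with a symbol for 53360 of 53465 genes. A second identifier of Ddit3 had 0 counts and was not used.

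Following the study, genes were kept by filterByExpr (edgeR 4.0.16, minimum count 5), which left 99.9% of the counts, and compared by limma-trend (limma 3.58.1, R 4.3.3) with Benjamini-Hochberg adjustment over all tested genes at 0.05. Normalization is not stated there, so TMM was used, with log2 CPM at a prior count of 3, which understates changes of low genes. DESeq2 1.42.0 and the edgeR quasi-likelihood test were alternatives, as were other size factors, no filter, a prior count of 0.5, a replicate block, removal of a spline in GC content and transcript length with 5 degrees of freedom each (14353 genes had values) and leaving out each sample. A real difference that tracks these properties would be removed with them. The fits were also run on simulated data that had no pairs, no GC dependence and no small changes, so that run cannot judge them on these data.

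The 10 genes, the lists, the tests and the rules were chosen with earlier results of these data known. Named genes are the 10, the largest rise and fall per list past the threshold, the eIF2 kinases, the bZIP genes past the threshold, and the 5 genes most like Atf4 and Trib3. The replicate numbers come from the labels and the study describes dividing a sorted population, and deviations from group means correlated by 0.474, 0.275, 0.249 and 0.172 within pairs numbered 1 to 4, against -0.225 to 0.0757 between different numbers, so the numbers were taken to pair the samples. The study calls its replicates independent, and p-values measure the spread between these cultures. The p-values printed for named genes come from fits without the block, so the deviation shared by a pair counts as part of that spread. At these depths 3 counts correspond to 0.119 to 0.233 CPM, which covers counting error only.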

Additional observations from a re-analysis of the deposited data

Results flagged for a closer look

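Some samples stood apart from the other 3 of their group by more than Dixon's critical value for groups of 4. Atf5 in hypoxia replicate 1, at 8.73 log2 CPM, lay below the other hypoxia samples. Trib3 in normoxia replicate 4, at 6.45 log2 CPM, lay above the other normoxia samples, and Stc2 in the same sample, at 2.84 log2 CPM, lay below them. The total count of hypoxia replicate 1 was 25132141, far above the other hypoxia samples. These were 4 of 26 sets searched, where chance alone would give about 1.3. Without that sample the Atf5 and Trib3 groups remain apart.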

How the results depend on the processing

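The numbers of called genes over all genes and over all pathway lists together stayed within 1.5 times the reported ones under every alternative run. The 5 called of the 10 ATF4 branch genes became 9 when the replicate block was combined with correction for GC content and length, and the 1 higher gene among them became 2 with either and 3 with both. Single lists moved more, as given with them: amino acid enzymes from 4 to 7 lower and the tRNA synthetase list from 3 to 6 higher with the block, and with both eIF2 and eIF2B from 4 to 7 higher, bZIP factors from 6 to 11 higher and effectors from 6 to 3 lower. With the replicate block alone, 6610 genes, 80 genes of the pathway lists and 7 of the 10 were called, against 4970, 66 and 5 without it. Leaving out single samples gave 3838 to 5423 genes (2019 to 2853 higher, 1819 to 2570 lower), 51 to 69 pathway genes (26 to 41 higher, 24 to 32 lower) and 5 to 6 of the 10, where Nupr1 was added without hypoxia replicate 1. The edgeR test called 4862 genes and DESeq2 4710. Over 40 named genes, 607 values kept direction and side of the threshold, 24 lost the threshold, 9 crossed it and 0 reversed; Cebpg, named outside the rule and not among the 40, turned from 0.081 to -0.11 with the correction. The losses were in Nfe2l1, Jdp2, Gcn1l1, Lonp1 and, with the GC and length correction, Chac1. The cause was not tested. Stc2, with at most 353 counts, has the least precision of the 10.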
